A study of Mus musculus with 12 samples.

Results

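TRIM proteins form a family of ubiquitin ligases. By symbol 68 of 55487 counted genes belong to it, namely the protein-coding genes whose mouse symbol is Trim followed by a number. Of these, 44 had enough reads for a test and 24 did not. Their RNA was measured in SCC7 cells, a line labelled as mouse squamous cell carcinoma of wild-type genotype, after a 24 h exposure to medium taken from bone-marrow-derived macrophages (BMDM). The study asked how medium from differently stimulated macrophages changes these cancer cells. For M1 CM (conditioned medium, CM) the BMDM had been stimulated with interferon-gamma (INF-γ in the labels) at 20 ng/ml, and for M2 CM with IL-4 at 20 ng/ml. For TAM CM, named after tumour-associated macrophages, they had been kept in 75% SCC7 conditioned medium, and for M0 CM in control medium (DMEM). Each stimulation lasted 24 h, and each of the 4 media has 3 libraries. The labels leave unstated if the cytokines or the SCC7 medium were washed away before BMDM medium was taken, so a direct action of interferon-gamma on the SCC7 cells and an action of macrophage products cannot be told apart.

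A typical TRIM protein carries a RING domain, which hands ubiquitin from an E2 enzyme to a target, followed by B-box zinc fingers and a coiled coil through which the proteins pair. The domain at the C-terminal end chooses the target and divides the family: a PRY-SPRY domain in the many members linked to innate immunity, NHL repeats in RNA-binding members, a PHD finger and bromodomain in the chromatin regulators Trim24, Trim28 and Trim33, and a COS box in members that bind microtubules. Interferons are known to raise the RNA of many PRY-SPRY members, and short promoter elements called ISRE and GAS are known from interferon-responsive genes.

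The promoters of the 7 members with the largest rise in M1 CM are shown first, because the results turn on these genes. All lie on chromosome 7. Each sequence runs from 250 bases before the start of the transcript to 50 bases after it, 5′ to 3′ on the gene's own strand, from RefSeq on build GRCm38.p6. Capitals mark a match to an ISRE-like motif (GAAA, then any 2 bases, then GAAA) or a GAS-like motif (TTCNNNGAA), searched on both strands. The table holds 2 promoters for Trim30a, both with an ISRE-like match, and 1 of them is printed.
Trim30c promoter, chr7:104400729-104401028, minus strand: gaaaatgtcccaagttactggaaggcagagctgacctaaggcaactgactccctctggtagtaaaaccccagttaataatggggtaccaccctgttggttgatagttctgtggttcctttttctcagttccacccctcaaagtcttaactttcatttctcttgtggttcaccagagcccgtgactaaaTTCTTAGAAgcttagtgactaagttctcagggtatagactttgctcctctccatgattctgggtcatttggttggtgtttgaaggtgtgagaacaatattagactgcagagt
Trim30a promoter, chr7:104465144-104465443, minus strand: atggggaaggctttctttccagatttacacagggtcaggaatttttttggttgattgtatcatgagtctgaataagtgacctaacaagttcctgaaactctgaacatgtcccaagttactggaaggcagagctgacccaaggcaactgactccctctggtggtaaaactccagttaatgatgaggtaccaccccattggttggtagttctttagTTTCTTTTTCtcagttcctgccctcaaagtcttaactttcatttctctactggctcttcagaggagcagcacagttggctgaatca
Trim34a promoter, chr7:104244207-104244506, plus strand: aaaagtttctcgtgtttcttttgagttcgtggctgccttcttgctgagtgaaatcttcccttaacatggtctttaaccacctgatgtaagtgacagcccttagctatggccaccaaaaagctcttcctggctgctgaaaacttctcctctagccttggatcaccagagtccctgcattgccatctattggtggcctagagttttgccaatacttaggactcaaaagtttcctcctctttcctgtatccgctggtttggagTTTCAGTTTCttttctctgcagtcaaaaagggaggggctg
Trim34b promoter, chr7:104329221-104329520, plus strand: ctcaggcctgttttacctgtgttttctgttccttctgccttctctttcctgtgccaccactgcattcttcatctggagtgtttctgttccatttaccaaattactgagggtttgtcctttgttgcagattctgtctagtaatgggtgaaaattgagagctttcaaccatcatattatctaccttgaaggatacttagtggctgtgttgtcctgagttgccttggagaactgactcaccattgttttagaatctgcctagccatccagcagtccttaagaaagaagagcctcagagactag
Trim30d promoter, chr7:104507800-104508099, minus strand: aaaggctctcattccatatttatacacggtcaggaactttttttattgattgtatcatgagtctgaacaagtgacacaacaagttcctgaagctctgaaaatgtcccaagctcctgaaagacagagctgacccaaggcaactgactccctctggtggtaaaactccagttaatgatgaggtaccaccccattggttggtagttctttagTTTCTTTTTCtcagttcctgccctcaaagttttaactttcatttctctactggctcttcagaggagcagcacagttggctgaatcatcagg
Trim21 promoter, chr7:102565433-102565732, minus strand: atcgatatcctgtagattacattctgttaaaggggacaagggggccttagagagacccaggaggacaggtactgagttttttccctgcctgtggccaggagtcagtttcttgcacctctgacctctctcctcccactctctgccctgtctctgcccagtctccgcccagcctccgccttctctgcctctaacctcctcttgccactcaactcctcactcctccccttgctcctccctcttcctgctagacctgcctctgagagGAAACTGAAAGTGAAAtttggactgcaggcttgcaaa
Trim12c promoter, chr7:104353300-104353599, minus strand: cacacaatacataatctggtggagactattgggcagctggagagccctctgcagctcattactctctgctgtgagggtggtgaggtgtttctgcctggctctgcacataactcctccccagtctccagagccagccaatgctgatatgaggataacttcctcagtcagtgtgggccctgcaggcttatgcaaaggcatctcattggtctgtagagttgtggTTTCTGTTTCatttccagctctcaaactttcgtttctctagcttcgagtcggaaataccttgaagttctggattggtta
An ISRE-like match was found in the promoters of Trim30a, Trim30d, Trim12c, Trim34a and Trim21. It lies from base -36 to -27 before the start in Trim30a, from -41 to -32 in Trim30d and from -29 to -20 in Trim12c. In Trim34a it lies behind the start, at bases 11 to 20, and Trim21 holds a pair of overlapping matches at bases 14 to 23 and 20 to 29. Trim30c holds a GAS-like match at -62 to -54 and no ISRE-like one, and these letters are not in this window of Trim34b. Among all 32851 promoters of the table, 3.44% held the ISRE-like motif and 8.30% the GAS-like motif. Of the 67 promoters of 53 TRIM genes, 10 (14.9%) held the ISRE-like and 7 (10.4%) the GAS-like motif. Counted by gene, 17.0% of the 53 TRIM genes and 3.99% of all genes with a promoter held the ISRE-like motif. Genes with an ISRE-like match were 6 of the 15 with a promoter that were higher in M1 CM, 1 of the 8 that were lower, 0 of the 9 that were not called and 2 of the 21 that were not tested. Among the 15, Trim30c and Trim30d had enough reads for a test through M1 CM alone, and Trim30d is 1 of the 6. A match is a description of the letters and does not show binding.

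The 12 libraries held 18996937 to 22596630 counts each, so 1 CPM, the unit of depth-scaled counts used here with TMM factors, stands for 18.3 to 23.5 counts. Values are given as CPM in each library or as mean ± SD of n = 3, and gene tests are from edgeR adjusted by Benjamini-Hochberg over the 14509 genes tested, with an adjusted p under 0.05 called. No label says whether the 3 libraries of a medium were separate cultures; the p-values therefore cover the spread between libraries alone, and that spread may be technical. Such bulk libraries cannot tell fewer cells that express a gene from less of its RNA per cell. The squamous markers Krt5, Krt14, Epcam and Cdh1 were at or near 0 in all groups, and Krt8 averaged 129 CPM in M1 CM, 453 CPM in M2 CM, 63.6 CPM in TAM CM and 267 CPM in M0 CM. The 7 fibroblast markers summed to 1481 CPM in M1 CM, 1482 CPM in M2 CM, 1167 CPM in TAM CM and 2563 CPM in M0 CM, with Col1a2 the most abundant and Lum at 0 in all libraries, and their part in the results was not tested. Macrophage markers were low: the 12 summed to 34.9 to 40.7 CPM in M1 CM, 22.7 to 25.2 CPM in M2 CM, 41.7 to 51.0 CPM in TAM CM and 23.4 to 24.5 CPM in M0 CM, most of it Cd14. Tyrobp was at 0 in all libraries, and Itgam had 1 count and Adgre1 had 11 counts in all 12. Cd68 averaged 6.99 CPM in M1 CM, 5.03 CPM in M2 CM, 2.89 CPM in TAM CM and 3.89 CPM in M0 CM. Mrc1 averaged 2.60 CPM in M1 CM, 1.90 CPM in M2 CM, 0.725 CPM in TAM CM and 0.681 CPM in M0 CM. The part of macrophage RNA in the results was not tested beyond these values. The third M2 CM library is labelled murine melanoma while its cell line label is SCC7. Its 7 melanocyte markers summed to 6.80 CPM, against 7.34 and 5.57 CPM in the other M2 CM libraries.

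In M1 CM the summed CPM of the family was higher than in M0 CM, and a group of neighbouring PRY-SPRY genes on chromosome 7 showed the largest rises. Of the 44 tested members 23 were called higher in M1 CM against M0 CM and 9 were called lower. Of all tested genes 53.4% were called, 27.7% higher and 25.6% lower. A difference of at least 1.5-fold was called for 16 members higher and 2 lower, where 10.1% of all tested genes were that much higher and 6.35% that much lower. The median log2 fold change was 0.22 over the tested members and 0.012 over all tested genes. These counts of higher members and the median include Trim30c and Trim30d. Both had enough reads for a test through M1 CM alone, so their direction was fixed by that filter. Trim69, counted as higher too, had enough reads through M1 CM and TAM CM alone. The CPM of all 68 members summed to 2956 ± 39.6 in M1 CM and 2089 ± 4.09 in M0 CM. The rise in the sum was not shared by all members. The 10 TRIM genes from Trim6 to Trim30d on chromosome 7 held 552 CPM of it in M1 CM and 52.3 CPM in M0 CM. Trim28 averaged 350 CPM in M1 CM and 420 CPM in M0 CM, and 12 of the 44 tested members were not called.

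Trim30a (ENSMUSG00000030921, chr7:104409025-104465193 on mm10), a mouse protein known to restrain signalling from Toll-like receptors to NF-κB, was the most abundant of these genes. It stood at 368, 354 and 329 CPM in M1 CM, 15.1, 17.3 and 15.2 CPM in M2 CM, 11.7, 14.4 and 12.5 CPM in TAM CM, and 23.4, 25.7 and 24.2 CPM in M0 CM. All M1 CM libraries were far above all others, and the M2 CM and TAM CM libraries all lay below those in M0 CM. The level in M1 CM was 14.4-fold that in M0 CM (log2 fold change 3.84, SE 0.051, adjusted p = 5.44e-41). Its neighbour Trim12c (chr7:104338754-104353362), a mouse relative of the primate retroviral restriction factor TRIM5, had 150.1, 141 and 135 CPM in M1 CM, 12, 13.1 and 13.7 CPM in M2 CM, 14.4, 17.8 and 16.4 CPM in TAM CM, and 20.2, 18.7 and 18.7 CPM in M0 CM (log2 fold change 2.88, SE 0.059, adjusted p = 2.84e-39 for M1 CM against M0 CM). Its M1 CM libraries were again far above all others and its M2 CM and TAM CM libraries below those in M0 CM, but its TAM CM level was above that in M2 CM (log2 fold change 0.33, adjusted p = 0.000334), while that of Trim30a was below it (log2 fold change -0.29, adjusted p = 0.00135).

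The close copies Trim34a (chr7:104244457-104262234) and Trim34b (chr7:104329471-104336909) are mouse relatives of human TRIM34. Trim34a had 18.4, 18.5 and 14.8 CPM in M1 CM, 1.76, 1.30 and 0.808 CPM in M2 CM, 1.75, 1.04 and 1.17 CPM in TAM CM, and 1.57, 1.69 and 1.11 CPM in M0 CM. Trim34b had 24.1, 23.6 and 20.9 CPM in M1 CM, 1.11, 0.803 and 0.713 CPM in M2 CM, 1.26, 1.58 and 1.07 CPM in TAM CM, and 2.00, 2.93 and 1.06 CPM in M0 CM. Both were high only in the 3 M1 CM libraries, with log2 fold changes over M0 CM of 3.56 (SE 0.18, adjusted p = 1.9e-22) and 3.52 (SE 0.17, adjusted p = 8.53e-19). In the annotated transcripts 39.8% of the 50-base words of Trim34a and 56.8% of those of Trim34b are shared between the pair, so reads may be split between them in ways that the counting decides. Their summed counts gave 40.1 CPM in M1 CM and 3.45 CPM in M0 CM, a log2 fold change of 3.54. Exons of Gm47248 on the opposite strand cover 23.5% of the exons of Trim34a, and the strand setting is not stated.

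Trim30c and Trim30d were close to absent outside M1 CM. Trim30c (chr7:104382065-104400837) had 13.1, 13.8 and 10.7 CPM in M1 CM, 0, 0 and 0.143 CPM in M2 CM, 0, 0 and 0 CPM in TAM CM, and 0.0425, 0.0995 and 0.145 CPM in M0 CM. In counts these are 789 over the M1 CM libraries, 3 over M2 CM, 0 over TAM CM and 6 over M0 CM (log2 fold change 6.99 for M1 CM against M0 CM, SE 0.32, adjusted p = 6.59e-24). Trim30d (chr7:104470014-104507849) had 0.990, 1.54 and 1.38 CPM in M1 CM, 0, 0 and 0.0475 CPM in M2 CM, 0, 0 and 0.0509 CPM in TAM CM, and 0.0850, 0.0995 and 0.241 CPM in M0 CM. That is 81 counts in M1 CM, 1 in M2 CM, 1 in TAM CM and 9 in M0 CM, and its log2 fold change in M1 CM was 3.16 (SE 0.50, adjusted p = 5.1e-07). Both genes passed the expression filter through M1 CM alone. Summed over Trim30a, Trim30b, Trim30c and Trim30d, the level was 365 CPM in M1 CM and 24.7 CPM in M0 CM (log2 fold change 3.89).

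These genes belong to a run of 10 TRIM genes over 289057 bases, chr7:104218793-104507849 on mm10, that begins with Trim6 and ends with Trim30d. The run as a whole gave 552 ± 32.6 CPM in M1 CM, which is 18.7% of the reads of the family, and 52.3 ± 2.09 CPM in M0 CM, which is 2.50%. Not every gene of the run was higher. Trim6, which makes free ubiquitin chains that act on IKKε, had 4.72, 5.10 and 4.81 CPM in M1 CM, 2.79, 4.01 and 2.42 CPM in M2 CM, 2.02, 1.76 and 1.43 CPM in TAM CM, and 4.63, 5.22 and 4.82 CPM in M0 CM. The M1 CM and M0 CM libraries of Trim6 overlapped (log2 fold change -0.0026, adjusted p = 0.993). Trim5, Trim12a and Trim30b of the run were under the filter, with 22, 1 and 21 counts in M1 CM and 5, 0 and 2 counts in M0 CM, and the pseudogene Trim30e-ps1 had 1 count in all libraries.

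**Figure D1:**
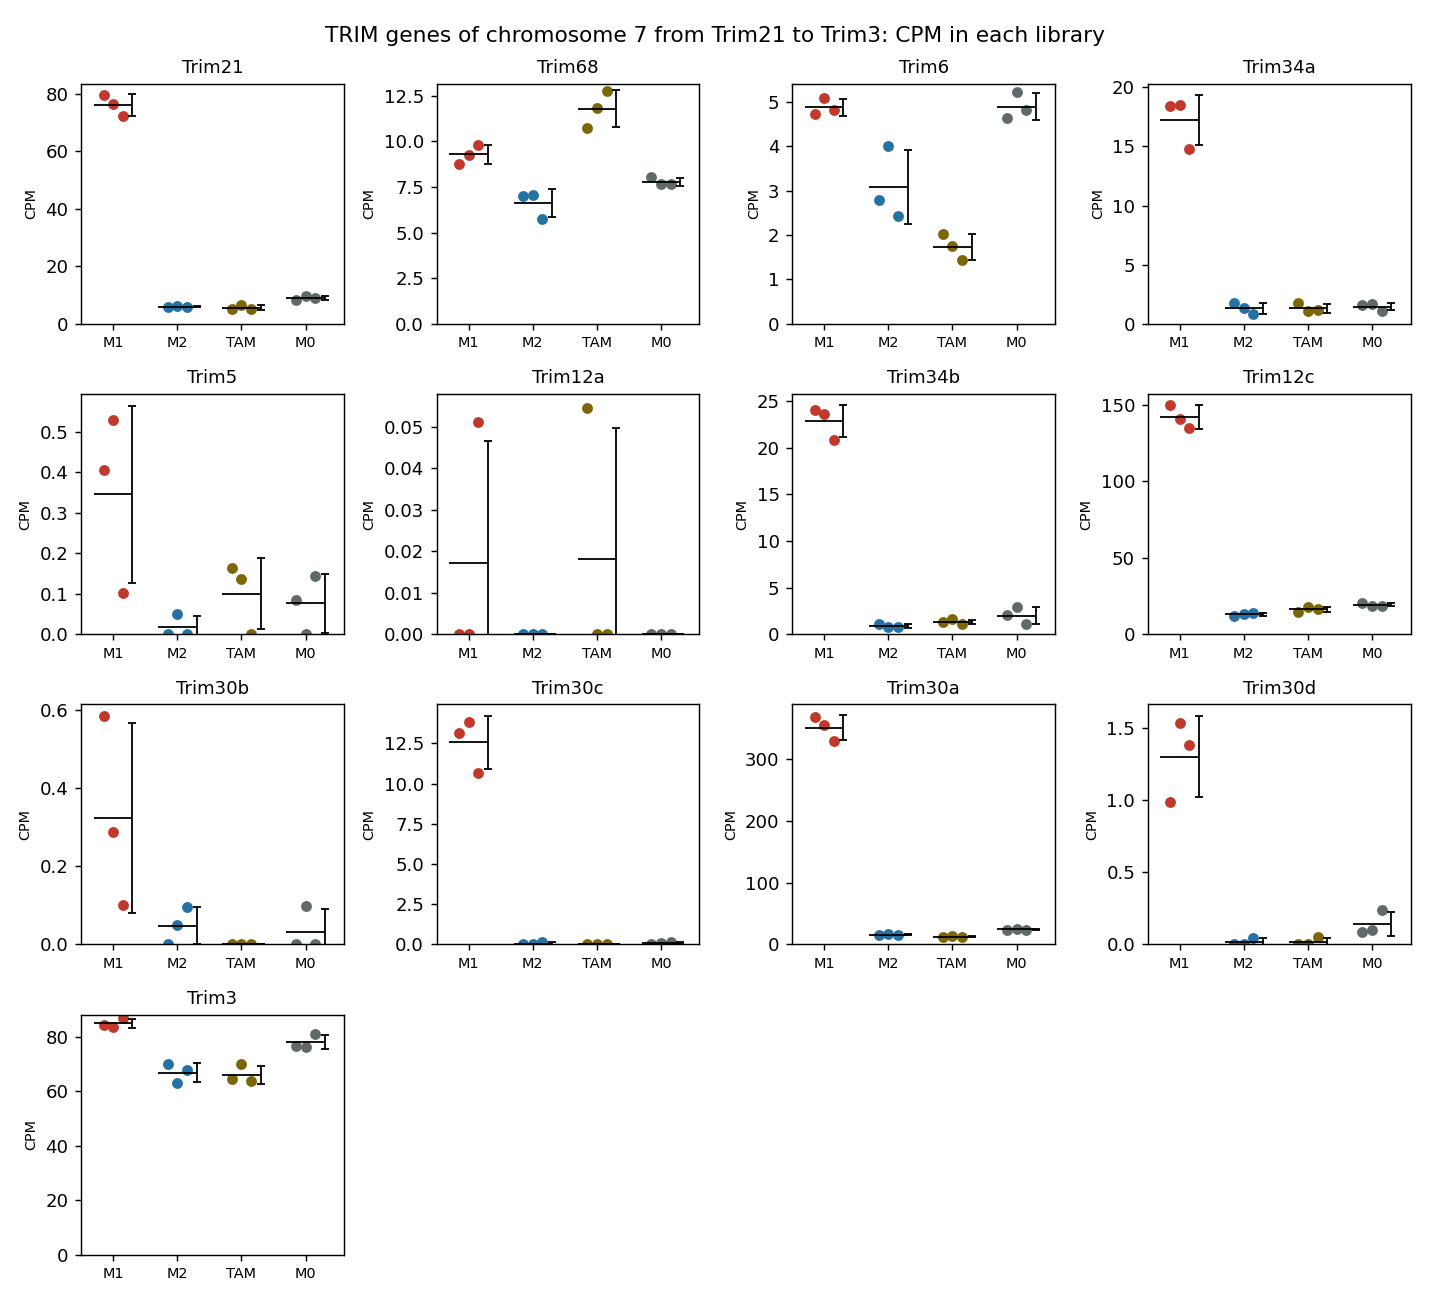
CPM (vertical axis, from 0) in each library for 13 TRIM genes of chromosome 7, with M1, M2, TAM and M0 CM from left to right in each panel; lines are group means and bars ± 1 SD of 3 libraries. Trim21, Trim34a, Trim34b, Trim12c, Trim30a, Trim30c and Trim30d are high in the M1 CM libraries, while Trim6, inside the same run, is at 4.88 CPM in M1 CM and 4.89 CPM in M0 CM.

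Further interferon-linked members were higher in M1 CM. The list drawn up from general knowledge holds 15 genes, of which 11 were tested and all 11 were higher in M1 CM, with a median log2 fold change of 3.10, where 27.7% of all tested genes were higher. This count describes the list and is no independent evidence of its direction: the list was chosen with results of these data known, and Trim30c and Trim30d passed the filter through M1 CM alone. The other 4, Trim5, Trim12a, Trim30b and Trim38, were under the filter. Trim21, a receptor in the cytosol for antibody-coated virus, had 79.5, 76.4 and 72.1 CPM in M1 CM, 5.71, 6.32 and 5.94 CPM in M2 CM, 5.19, 6.46 and 5.14 CPM in TAM CM, and 8.33, 9.50 and 8.91 CPM in M0 CM. M1 CM was fully apart from M0 CM (log2 fold change 3.10, SE 0.076, adjusted p = 2.72e-36). Trim21 lies outside the run, at chr7:102557921-102565486.

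Trim25, the ligase that modifies the RNA sensor RIG-I, was already abundant in M0 CM. Its values were 204, 211 and 201 CPM in M1 CM, 78.6, 77.2 and 74.7 CPM in M2 CM, 83.2, 86.6 and 87.3 CPM in TAM CM, and 71.5, 67.6 and 66.6 CPM in M0 CM. The level in M1 CM was 2.99-fold that in M0 CM and cleared all other libraries (log2 fold change 1.58, SE 0.039, adjusted p = 3.99e-36). Trim56, a ligase that acts on the DNA-sensing pathway of cGAS and STING, had 279, 271 and 259.7 CPM in M1 CM, 87.5, 92.6 and 92.0 CPM in M2 CM, 164, 170.1 and 157 CPM in TAM CM, and 126, 128 and 126 CPM in M0 CM. It was higher in all M1 CM libraries (log2 fold change 1.09, SE 0.036, adjusted p = 1.45e-30). Trim26, reported to act on IRF3, had 82.1, 83.6 and 82.3 CPM in M1 CM, 36.3, 36.8 and 38.8 CPM in M2 CM, 40.6, 46.0 and 46.3 CPM in TAM CM, and 47.3, 45.4 and 39.9 CPM in M0 CM, again with M1 CM above all other libraries (log2 fold change 0.90, SE 0.054, adjusted p = 5.42e-20).

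Trim14, an adaptor without a RING domain that acts at MAVS on mitochondria, had 7.87, 7.74 and 8.90 CPM in M1 CM, 1.58, 1.00 and 1.62 CPM in M2 CM, 1.64, 1.40 and 1.32 CPM in TAM CM, and 1.70, 1.49 and 2.12 CPM in M0 CM. Only its M1 CM libraries stood out (log2 fold change 2.20, SE 0.19, adjusted p = 1.78e-14). Exons of Nans on the opposite strand cover 31.3% of the exons of Trim14, and without a stated strand setting reads of this gene pair cannot be told apart. Trim69, an interferon-responsive gene in human cells, was low, at 1.21, 1.44 and 1.38 CPM in M1 CM, 0.279, 0.451 and 0.238 CPM in M2 CM, 0.546, 0.858 and 0.713 CPM in TAM CM, and 0.255, 0.298 and 0.193 CPM in M0 CM. M1 CM was highest and TAM CM next, with no overlap with M0 CM for either (log2 fold changes 2.41, adjusted p = 2.09e-06, and 1.5, adjusted p = 0.00343). Trim69 was over the filter's limit of 0.484 CPM in M1 CM and TAM CM alone. Its directions against M0 CM are therefore not independent of that filter.

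Members with no usual place in the interferon response were also higher in M1 CM. Trim16, a RING-less member that directs autophagy to damaged lysosomes, and Trim35, reported to bind pyruvate kinase M2, rose by log2 values of 0.87 (SE 0.073, adjusted p = 1.49e-14) and 0.63 (SE 0.034, adjusted p = 4.94e-22); their values by library are given with TAM CM, where they were higher still. Trim43b and Trim43c, of a group known from early mouse embryos, were called at about 1 CPM. Trim43b had 1.26, 0.721 and 1.28 CPM in M1 CM, 0.743, 0.803 and 0.618 CPM in M2 CM, 0.491, 0.361 and 0.611 CPM in TAM CM, and 0.850, 0.199 and 0.482 CPM in M0 CM. Its M1 CM and M0 CM libraries overlapped (log2 fold change 1.05, adjusted p = 0.0234). Trim43c had 1.48, 1.11 and 1.43 CPM in M1 CM, 0.743, 1.00 and 0.713 CPM in M2 CM, 0.491, 0.858 and 0.611 CPM in TAM CM, and 0.425, 1.04 and 0.723 CPM in M0 CM, without overlap between M1 CM and M0 CM (log2 fold change 0.89, adjusted p = 0.0258). Trim43a, Trim43b and Trim43c share 42.1% to 47.7% of their 50-base words, and both calls were lost when some single libraries were left out, with adjusted p of up to 0.177 for Trim43b and 0.184 for Trim43c. Exons of 9330159M07Rik on the opposite strand cover 38.6% of the exons of Trim43c, and the strand setting is not stated.

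A pair of members fell by at least 1.5-fold in M1 CM. Trim59, which carries a membrane-spanning segment and is often high in dividing tumour cells, had 72.0, 65.3 and 71.3 CPM in M1 CM, 121, 128 and 126 CPM in M2 CM, 83.7, 85.6 and 80.8 CPM in TAM CM, and 118, 129 and 119 CPM in M0 CM. All M1 CM libraries were below all libraries of the other media (log2 fold change -0.81, SE 0.043, adjusted p = 5.15e-22), and it fell in TAM CM too (log2 fold change -0.55, SE 0.042, adjusted p = 2.58e-16). Trim71, an RNA-binding regulator of early embryonic cells, had 2.07, 2.21 and 3.02 CPM in M1 CM, 3.34, 3.11 and 3.18 CPM in M2 CM, 0.655, 0.316 and 0.255 CPM in TAM CM, and 4.51, 2.69 and 4.10 CPM in M0 CM. Its M1 CM libraries overlapped with M0 CM (log2 fold change -0.64, adjusted p = 0.0099), and the call was lost without the first M0 CM library (adjusted p = 0.0976) or the first M1 CM library (adjusted p = 0.0640).

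Of the remaining members, 7 were higher in M1 CM by less than 1.5-fold: Trim3, Trim11, Trim39, Trim45, Trim46, Trim47 and Trim65, with log2 fold changes from 0.12 for Trim3 to 0.42 for Trim46. The calls of Trim3, Trim11 and Trim39 were lost with library sizes alone as the scaling. The 7 lower by less than 1.5-fold were Trim2, Trim8, Trim24, Trim27, Trim28, Trim32 and Trim62, from -0.16 for Trim27 to -0.51 for Trim24. The 12 not called were Trim6, Trim7, Trim13, Trim17, Trim23, Trim33, Trim36, Trim37, Trim41, Trim44, Trim66 and Trim68.

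**Figure D2:**
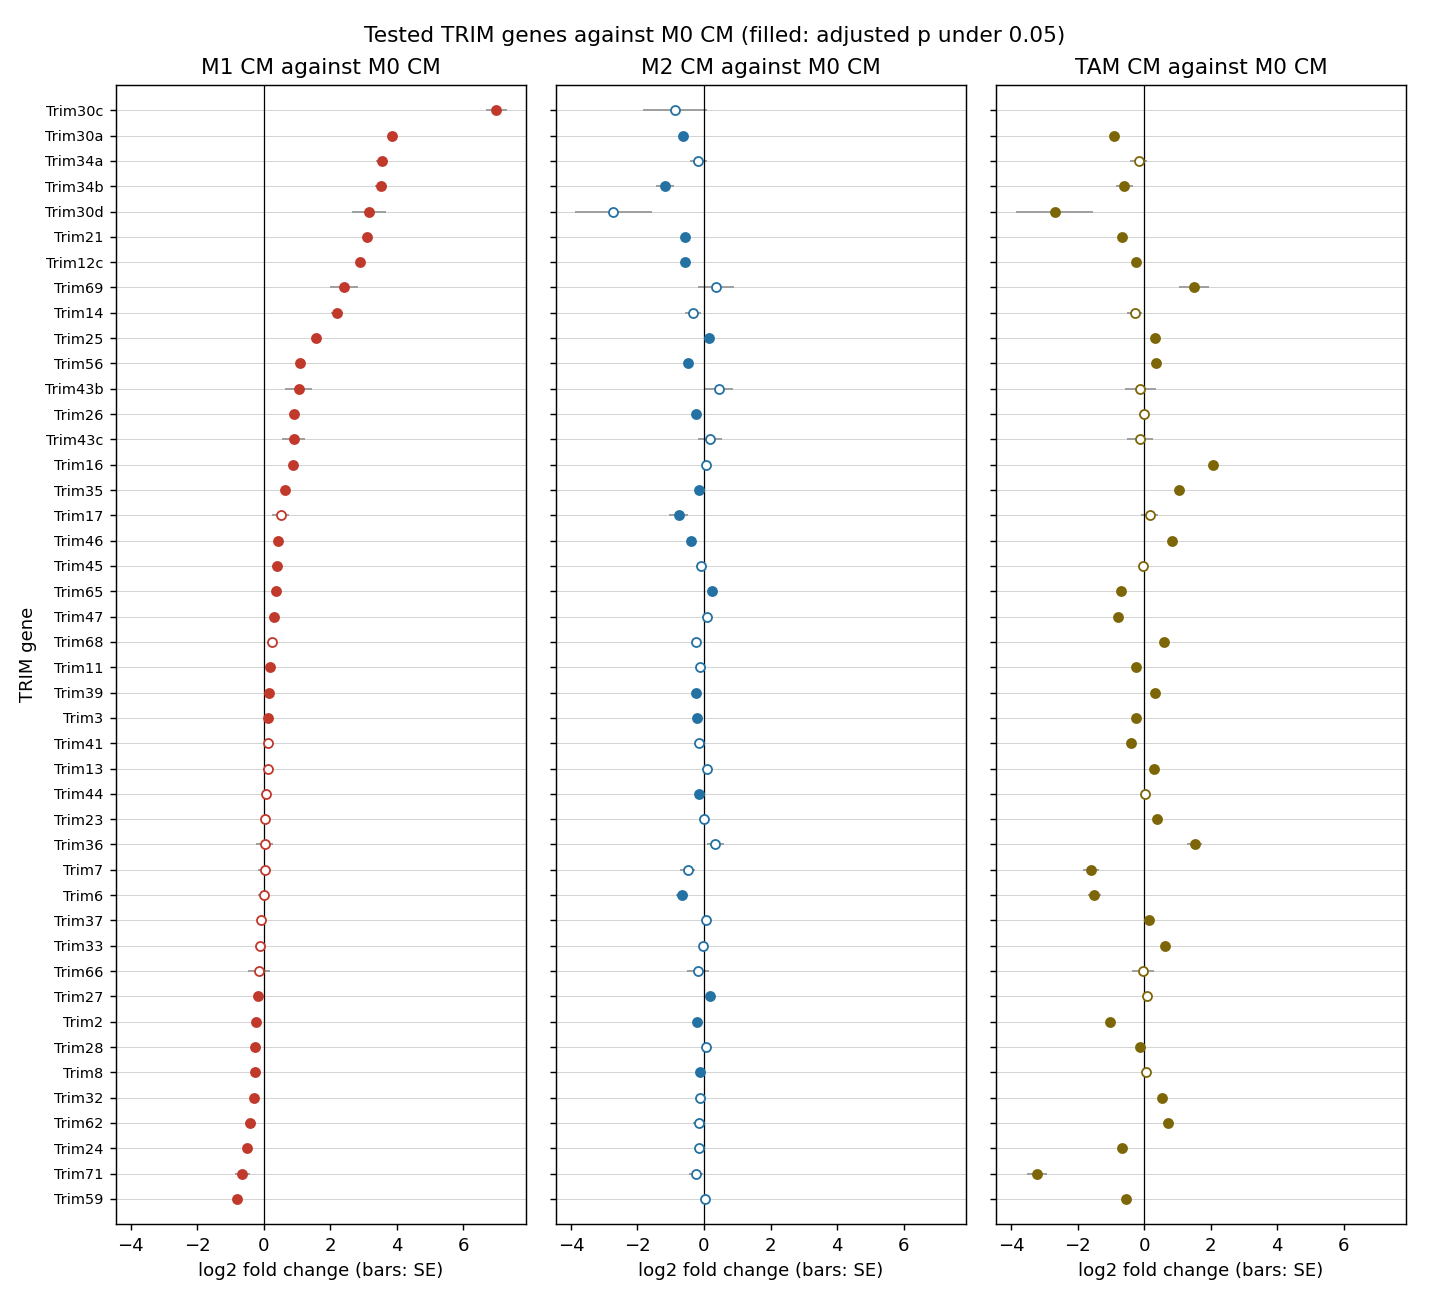
Log2 fold change against M0 CM (horizontal axis, same scale in the 3 panels, bars ± 1 SE) of the tested TRIM genes in M1 CM, M2 CM and TAM CM, ordered by the value in M1 CM; filled points have an adjusted p under 0.05. Trim30c has no point in TAM CM, where it had 0 counts. The top 11 genes in M1 CM reach from 1.09 for Trim56 to 6.99 for Trim30c, while in M2 CM and TAM CM most of the same genes lie at or left of 0.

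Genes that work with these TRIM proteins are given for M1 CM against M0 CM from lists of general knowledge, beside which 53.4% of all tested genes were called, 27.7% higher and 25.6% lower. All 5 genes of ISG15 conjugation and removal, the ubiquitin-like system in which human TRIM25 also acts, were higher. Isg15 itself averaged 299 CPM in M1 CM, against 4.93 CPM in M0 CM (log2 fold change 5.92, SE 0.11, adjusted p = 9.84e-14), and Usp18, which removes ISG15, 64.6 CPM in M1 CM, against 1.05 CPM in M0 CM (log2 fold change 5.93, SE 0.13, adjusted p = 1.61e-33). Of 11 genes of RIG-I signalling around TRIM25, 9 were higher and 2, Irf3 and Traf3, were lower. Ddx58, which encodes RIG-I, averaged 337 CPM in M1 CM, against 86.5 CPM in M0 CM (log2 fold change 1.96, SE 0.042, adjusted p = 1.3e-33). Irf7, the interferon-inducible partner of IRF3, averaged 139 CPM in M1 CM, against 3.12 CPM in M0 CM (log2 fold change 5.48, SE 0.088, adjusted p = 2.49e-39). Of 12 E2 enzymes used by TRIM ligases, 2 were higher and 4 lower, each by less than 1.5-fold, a share called that is near that of all genes. Of 6 tested TRIM-family genes under other symbols, 1 was higher (Pml, log2 fold change 0.56, adjusted p = 1.79e-15) and 2 were lower; Mid2, a microtubule-bound ligase, averaged 2.35 CPM in M1 CM, against 5.87 CPM in M0 CM (log2 fold change -1.31, SE 0.17, adjusted p = 6.69e-09).

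In TAM CM the differences ran in both directions, with the largest rise in Trim16 and a strong fall in Trim71. Against M0 CM 15 members were higher and 18 were lower, which is 75% of those tested, where 70.0% of all tested genes were called, 35.1% higher and 34.9% lower. At least 1.5-fold differences were 8 higher and 12 lower, where 17.6% of all genes were higher and 18.3% lower by that much. Both counts of higher members include Trim69, which had enough reads for a test through M1 CM and TAM CM alone. The median log2 fold change was -0.078 over members and 0.00086 over all genes, and the family summed to 2177 ± 13.0 CPM in TAM CM and 2089 ± 4.09 CPM in M0 CM. The comparisons of M1 CM, M2 CM and TAM CM with M0 CM share the M0 CM libraries.

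Trim16 (ENSMUSG00000047821, chr11:62820231-62850808) had 60.9, 55.9 and 59.4 CPM in TAM CM, 25.6, 23.7 and 26.5 CPM in M1 CM, 14.6, 13.4 and 15.2 CPM in M2 CM, and 14.3, 13.4 and 13.8 CPM in M0 CM. Its TAM CM libraries were above all others and its M1 CM libraries above those in M2 CM and M0 CM; TAM CM was at 4.24 times the level in M0 CM (log2 fold change 2.08, SE 0.068, adjusted p = 3.31e-31). Trim35 (ENSMUSG00000022043, chr14:66297031-66311424) had 340.4, 331 and 340.1 CPM in TAM CM, 243, 262 and 250.5 CPM in M1 CM, 148, 143 and 146 CPM in M2 CM, and 164, 161 and 162 CPM in M0 CM. TAM CM was again highest and M1 CM next, with TAM CM at 2.08 times M0 CM (log2 fold change 1.05, SE 0.033, adjusted p = 1.17e-31), while the M2 CM libraries of Trim35 were all below those in M0 CM (log2 fold change -0.16, adjusted p = 0.000222).

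Of 7 members listed with a COS box 2 were tested, and both were higher in TAM CM, where 35.1% of all tested genes were higher. The microtubule-bound relative Mid2, under another symbol, was lower in TAM CM than in M0 CM (log2 fold change -1.16, adjusted p = 4.57e-08). Mid1 was lower too (log2 fold change -1.24, adjusted p = 6.82e-07). Trim46, which organises microtubules in axons, had 28.6, 27.9 and 27.1 CPM in TAM CM, 21.4, 20.9 and 19.9 CPM in M1 CM, 12.1, 10.6 and 12.6 CPM in M2 CM, and 15.4, 14.9 and 16.1 CPM in M0 CM. TAM CM and M1 CM were each fully above M0 CM and M2 CM below it (log2 fold change 0.85, SE 0.077, adjusted p = 6.45e-14 for TAM CM). Trim36, first known from the sperm acrosome, was low, with 4.37, 4.74 and 3.41 CPM in TAM CM, 1.17, 1.73 and 1.53 CPM in M1 CM, 1.86, 2.31 and 1.38 CPM in M2 CM, and 1.11, 1.64 and 1.64 CPM in M0 CM. Only TAM CM stood apart (log2 fold change 1.52, SE 0.23, adjusted p = 7.9e-08).

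Trim33, a chromatin-bound regulator of SMAD signalling, had 66.5, 66.5 and 63.1 CPM in TAM CM, 40.0, 38.7 and 37.9 CPM in M1 CM, 40.4, 45.2 and 37.8 CPM in M2 CM, and 43.4, 38.7 and 43.8 CPM in M0 CM. The rise was seen in TAM CM alone among the 3 media (log2 fold change 0.64, SE 0.056, adjusted p = 2.58e-14). Trim62, linked to cell polarity in the mammary gland, had 7.21, 6.05 and 6.06 CPM in TAM CM, 2.79, 2.69 and 3.33 CPM in M1 CM, 4.18, 3.01 and 3.18 CPM in M2 CM, and 3.61, 4.13 and 3.90 CPM in M0 CM, with TAM CM above all others (log2 fold change 0.73, SE 0.16, adjusted p = 6.31e-05). Trim68, a coactivator of the androgen receptor, had 10.8, 11.8 and 12.8 CPM in TAM CM, 8.77, 9.23 and 9.82 CPM in M1 CM, 7.01, 7.07 and 5.75 CPM in M2 CM, and 8.04, 7.66 and 7.66 CPM in M0 CM; its TAM CM libraries were above all M0 CM libraries (log2 fold change 0.60, SE 0.11, adjusted p = 5.21e-06).

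Among the members that fell in TAM CM, Trim71 (ENSMUSG00000079259, chr9:114507133-114564369) had the largest log2 fold change of those above 1 CPM in M0 CM. As given above it was at 0.655, 0.316 and 0.255 CPM in TAM CM, against 4.51, 2.69 and 4.10 CPM in M0 CM, with no overlap (log2 fold change -3.22, SE 0.30, adjusted p = 1.08e-13). Trim7, a partner of glycogenin, had 0.764, 1.17 and 0.815 CPM in TAM CM, 3.01, 2.98 and 2.56 CPM in M1 CM, 2.00, 2.26 and 1.76 CPM in M2 CM, and 2.59, 2.73 and 3.13 CPM in M0 CM. TAM CM was below all other libraries (log2 fold change -1.59, SE 0.25, adjusted p = 1.61e-07). Trim6 also fell, with every TAM CM library below every other one (log2 fold change -1.49, SE 0.20, adjusted p = 3.14e-09).

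Trim2, an NHL-repeat ligase known from neurons, had 76.0, 76.9 and 82.7 CPM in TAM CM, 134, 134 and 141 CPM in M1 CM, 135, 139.9 and 145 CPM in M2 CM, and 159.8, 160.2 and 163 CPM in M0 CM. TAM CM was far below the other media, and M1 CM and M2 CM were slightly below M0 CM (log2 fold change -1.04, SE 0.039, adjusted p = 1.53e-28 for TAM CM). Trim47 and Trim65, a ligase of the RNA sensor MDA5, are neighbours on chromosome 11 that share 225 bases of exon. Trim47 had 69.4, 69.6 and 72.7 CPM in TAM CM, 156, 141 and 154 CPM in M1 CM, 135, 122 and 133 CPM in M2 CM, and 123, 123 and 122 CPM in M0 CM. Trim65 had 15.3, 16.4 and 15.8 CPM in TAM CM, 30.8, 34.1 and 34.4 CPM in M1 CM, 30.7, 28.7 and 30.4 CPM in M2 CM, and 23.7, 27.0 and 26.0 CPM in M0 CM. Both were lowest in TAM CM and highest in M1 CM, with log2 fold changes in TAM CM of -0.80 (SE 0.042, adjusted p = 1.46e-22) and -0.69 (SE 0.074, adjusted p = 1.24e-11).

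Trim24, a chromatin regulator that binds retinoic acid receptors and p53, had 22.1, 25.0 and 24.2 CPM in TAM CM, 27.6, 24.7 and 27.2 CPM in M1 CM, 36.5, 31.8 and 33.7 CPM in M2 CM, and 35.1, 38.5 and 40.0 CPM in M0 CM. TAM CM and M1 CM were each fully below M0 CM (log2 fold change -0.67, SE 0.068, adjusted p = 2.43e-12 for TAM CM). Several of the genes that were high in M1 CM were low in TAM CM. Trim30a fell (log2 fold change -0.91, SE 0.074, adjusted p = 2.15e-14), and so did Trim21 (log2 fold change -0.66, SE 0.11, adjusted p = 4.11e-07), each with no overlap with M0 CM. Trim34b was called lower with overlapping groups (log2 fold change -0.60, SE 0.26, adjusted p = 0.0428), but its call was lost without the second M0 CM library (log2 fold change -0.24, adjusted p = 0.433) and under several other alternatives, and the sum of Trim34a and Trim34b was not called (adjusted p = 0.179). Trim30c had 0 counts in TAM CM and 6 in M0 CM. With the 0 set to a floor of 3 counts over the group, the ratio of M0 CM to TAM CM was 1.87. This ratio takes the 6 counts as exact and is no lower bound. Trim30d, with 1 count in TAM CM and 9 in M0 CM, gave a ratio of M0 CM to TAM CM of 8.40 (exact 95% interval 1.16 to 368), and its call was lost without the third M0 CM library (adjusted p = 0.171).

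The 11 members not called in TAM CM were Trim8, Trim14, Trim17, Trim26, Trim27, Trim34a, Trim43b, Trim43c, Trim44, Trim45 and Trim66. Smaller rises were called for Trim13, Trim23, Trim25, Trim32, Trim37, Trim39 and Trim56, up to 0.53 on the log2 scale for Trim32, a ligase mutated in a human muscular dystrophy. That gene averaged 60.6 ± 3.21 CPM in TAM CM and 42.0 ± 2.00 CPM in M0 CM. The call of Trim13 was lost under several alternatives, among them DESeq2 (adjusted p = 0.0659) and library sizes alone (adjusted p = 0.174). Smaller falls were called for Trim3, Trim11, Trim12c, Trim28, Trim41 and Trim59, of which Trim59 moved most. The interferon-linked list had 2 members higher (Trim25 and Trim56) and 6 lower of 11 tested in TAM CM, with a median log2 fold change of -0.29; the 8 called are a share near the 70.0% of all tested genes. Of the 6 lower ones, the calls of Trim12c, Trim30c, Trim30d and Trim34b were lost under at least 1 alternative, that of Trim12c without the first TAM CM library (adjusted p = 0.0606) and that of Trim30c without the third M0 CM library (adjusted p = 0.0568).

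**Figure D3:**
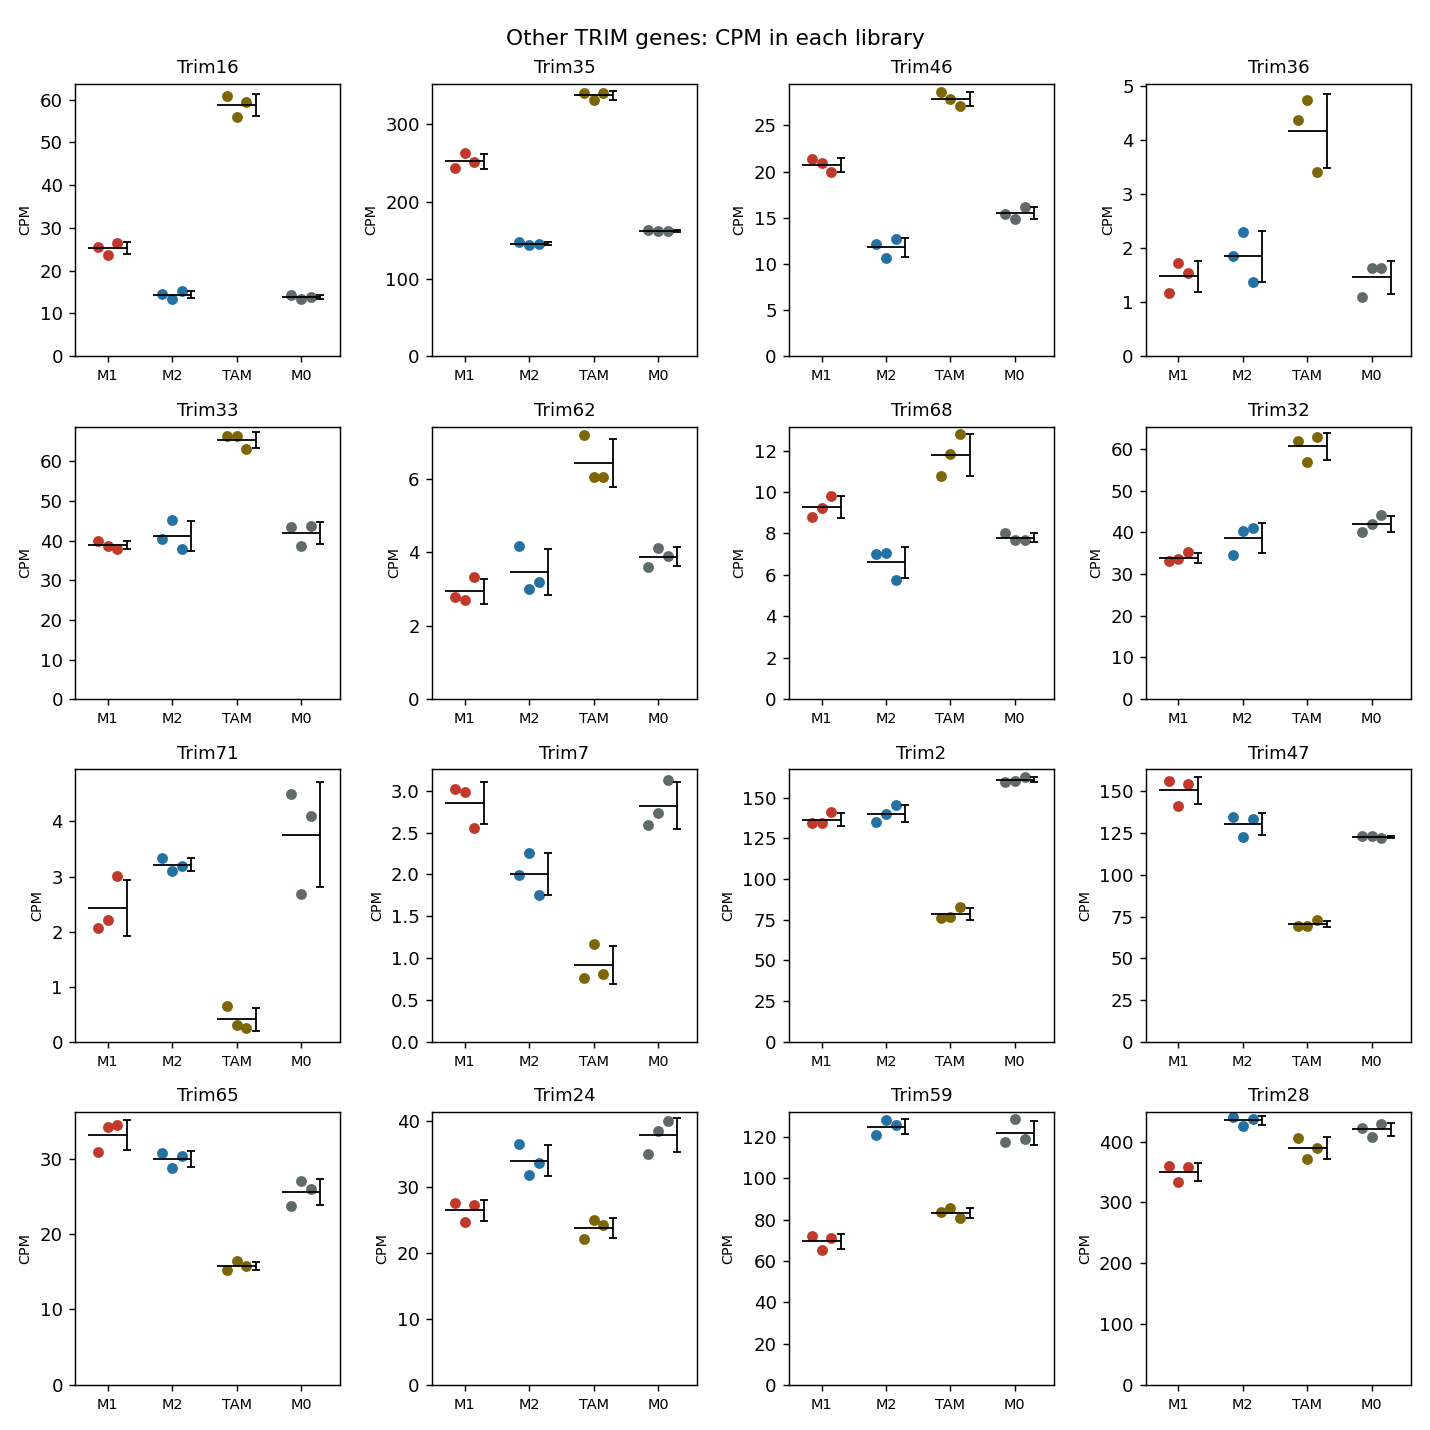
CPM (vertical axis, from 0) in each library for 16 TRIM genes, with M1, M2, TAM and M0 CM from left to right; lines are group means and bars ± 1 SD of 3 libraries. Trim16, Trim35, Trim46, Trim36, Trim33, Trim62 and Trim68 have their highest libraries in TAM CM, and Trim71, Trim7, Trim2, Trim47 and Trim65 their lowest.

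The same lists of working partners are given for TAM CM, where 70.0% of all tested genes were called, 35.1% higher and 34.9% lower. Ube2w, an E2 enzyme that attaches ubiquitin to the N-terminal end of proteins, averaged 60.2 CPM in TAM CM, against 22.9 CPM in M0 CM (log2 fold change 1.39, SE 0.065, adjusted p = 1.28e-24), and of the 12 E2 enzymes 6 were higher and 3 lower, a share called near that of all genes. Mdm2, which shares the target p53 with TRIM24, averaged 717 CPM in TAM CM, against 215 CPM in M0 CM (log2 fold change 1.74, SE 0.072, adjusted p = 4.83e-09), and Cbx5, an HP1 protein that binds TRIM28, averaged 507 CPM in TAM CM, against 843 CPM in M0 CM (log2 fold change -0.73, SE 0.031, adjusted p = 1.12e-26). Over the 8 partners of TRIM28, TRIM24 and TRIM33, 4 were higher and 3 lower. Of 11 RIG-I signalling genes 10 were lower and 1 was higher in TAM CM. Dhx58 averaged 3.45 CPM in TAM CM, against 18.4 CPM in M0 CM (log2 fold change -2.42, SE 0.10, adjusted p = 1.48e-26), and the higher one, the antiviral Zc3hav1, 443 CPM in TAM CM, against 136 CPM in M0 CM (log2 fold change 1.70, SE 0.034, adjusted p = 6.17e-40). ISG15 genes were split, with Isg15 at 15.3 CPM in TAM CM, against 4.93 CPM in M0 CM (log2 fold change 1.63, SE 0.16, adjusted p = 1.38e-06) and Uba7, its activating enzyme, at 1.34 CPM in TAM CM, against 6.56 CPM in M0 CM (log2 fold change -2.29, SE 0.24, adjusted p = 2.8e-07). Of the 6 tested TRIM relatives under other symbols 4 were lower and the other 2, Bspry and Mefv, were not called; among the lower ones was Pml, the organiser of PML nuclear bodies, at 41.6 CPM in TAM CM, against 79.8 CPM in M0 CM (log2 fold change -0.94, SE 0.05, adjusted p = 1.86e-22).

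M2 CM had the fewest calls of the 3 media, among members as among all tested genes, and most calls of members were downward. Of the 44 members 3 were higher and 15 lower than in M0 CM. The share called, 40.9%, is near the 39.4% of all tested genes, of which 21.0% were higher and 18.5% lower. At least 1.5-fold lower were 4 members, where 4.57% of all genes were, and the highest log2 fold change of a called member was 0.23, where 2.78% of all genes were at least 1.5-fold higher. The median log2 fold change was -0.16 over members and -0.0035 over all genes, and the family summed to 1985 ± 18.1 CPM in M2 CM and 2089 ± 4.09 CPM in M0 CM. Without the third M2 CM library, which carries the melanoma label, 3 members were higher and 16 lower.

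The 4 members were Trim34b, Trim17, Trim6 and Trim30a, whose libraries are given above except those of Trim17. For Trim30a the M2 CM libraries lay fully below M0 CM (log2 fold change -0.62, SE 0.07, adjusted p = 1.4e-09), as they did for Trim6 (log2 fold change -0.67, SE 0.18, adjusted p = 0.00186). Trim34b had overlapping groups (log2 fold change -1.17, SE 0.28, adjusted p = 0.00109), and the sum with its copy Trim34a was not called (log2 fold change -0.66, adjusted p = 0.0591). Trim17, a ligase of the survival protein MCL1 in neurons, had 2.65, 2.50 and 2.10 CPM in M1 CM, 1.11, 1.25 and 0.665 CPM in M2 CM, 1.53, 2.30 and 1.88 CPM in TAM CM, and 1.70, 2.24 and 1.20 CPM in M0 CM. The M2 CM and M0 CM libraries overlapped (log2 fold change -0.76, SE 0.29, adjusted p = 0.0327), and the call was lost without the third M2 CM library (adjusted p = 0.185), the first M0 CM library (adjusted p = 0.0655) or the second (adjusted p = 0.205). Exons of Hist3h2a cover 19% of those of Trim17.

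Smaller falls in M2 CM were called for Trim2, Trim3, Trim8, Trim12c, Trim21, Trim26, Trim35, Trim39, Trim44, Trim46 and Trim56. The call of Trim8 was lost under DESeq2 (adjusted p = 0.0719), without the second M0 CM library (adjusted p = 0.232) and under other alternatives. Trim12c (-0.57 on the log2 scale) and Trim21 (-0.57) lay just inside the 1.5-fold limit. The 3 higher members were Trim25, Trim27 and Trim65, with log2 fold changes of 0.16, 0.18 and 0.23. Of the interferon-linked list 1 of 11 tested members was higher and 6 were lower in M2 CM, with a median log2 fold change of -0.57, where 39.4% of all tested genes were called. Setdb1, the histone methyltransferase recruited by TRIM28, averaged 243 CPM in M2 CM, against 132 CPM in M0 CM (log2 fold change 0.88, SE 0.035, adjusted p = 1.51e-26), while Trim28 itself had 435 ± 7.69 CPM in M2 CM and 419.8 ± 10.7 CPM in M0 CM (adjusted p = 0.242). Of the 12 E2 enzymes 5 were higher in M2 CM, each by less than 1.5-fold, and 7 were not called. Of the 5 ISG15 genes 3 were lower, with Uba7 at 2.24 CPM in M2 CM, against 6.56 CPM in M0 CM (log2 fold change -1.56, SE 0.21, adjusted p = 1.99e-05), and of the 11 RIG-I signalling genes 5 were lower and 6 not called. Of the 6 tested TRIM-family genes under other symbols 1 was higher and 3 were lower. The higher one, Mefv, averaged 0.871 CPM in M2 CM, against 0.0463 CPM in M0 CM (log2 fold change 4.05, SE 0.71, adjusted p = 6.00e-06). Mefv was over the filter's limit of 0.484 CPM in M2 CM alone. Mid1 (log2 fold change -0.62, adjusted p = 0.00733) and Rnf207 (log2 fold change -0.85, adjusted p = 0.00923) were among the lower ones.

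M2 CM and TAM CM were also set against M1 CM. In M2 CM 7 members were higher and 26 lower than in M1 CM, where 56.2% of all genes were called, 27.8% higher and 28.4% lower. By at least 1.5-fold 17 were lower and 1 was higher, where 12% and 5.80% of all genes were. In TAM CM 15 members were higher and 24 lower than in M1 CM, where 67.2% of all genes were called, 32.8% higher and 34.4% lower. By at least 1.5-fold 5 were higher and 20 lower, where 13.2% and 16.7% of all genes were. All 11 tested interferon-linked members were at least 1.5-fold lower in M2 CM and in TAM CM than in M1 CM. Both comparisons share the M1 CM libraries, the list was chosen with its high levels in M1 CM known, and for Trim30c and Trim30d, which passed the filter through M1 CM alone, this direction was fixed by the filter. Trim30c and Trim30d are also among all members counted as lower in both comparisons. So is Trim69, which was over the filter's limit in M1 CM and TAM CM alone. Trim30a was lower by log2 values of -4.47 in M2 CM (SE 0.055) and -4.76 in TAM CM (SE 0.057). Trim30c, at 3 counts in M2 CM and 789 in M1 CM, gave a ratio of M1 CM to M2 CM of 263 (exact 95% interval 89.6 to 1277). With its 0 counts in TAM CM set to the floor of 3, the ratio of M1 CM to TAM CM was 253. Trim59 was the only member at least 1.5-fold higher in M2 CM than in M1 CM (log2 fold change 0.85, SE 0.043, adjusted p = 7.99e-23).

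TAM CM differed from M2 CM in 31 members, 18 higher and 13 lower. That is 70.5% of those tested, near the 68.4% of all genes called, 34.3% higher and 34.1% lower. By at least 1.5-fold 11 members were higher and 6 lower, where 16.9% and 16.1% of all genes were. The 11 include Trim69, over the filter's limit in M1 CM and TAM CM alone. The higher ones were led by Trim16 (log2 fold change 2.03, SE 0.068, adjusted p = 1.15e-30), Trim46 (log2 fold change 1.24, SE 0.081, adjusted p = 5.07e-19) and Trim35 (log2 fold change 1.21, SE 0.034, adjusted p = 5.82e-34). The 6 lower ones were Trim71, Trim7, Trim65, Trim47, Trim2 and Trim6. Trim56 was higher in TAM CM than in M2 CM (log2 fold change 0.85, SE 0.038, adjusted p = 1.75e-25), with TAM CM above and M2 CM below M0 CM. Over all 6 comparisons, 7 members were called in each of them, and Trim66 in none. By group mean 23 members were highest in M1 CM, 3 in M2 CM, 13 in TAM CM and 5 in M0 CM.

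Counts by subfamily are given against M0 CM, where 53.4% of all tested genes were called for M1 CM, 39.4% for M2 CM and 70.0% for TAM CM. The PRY-SPRY subfamily is counted here without members that lack a RING domain, which are listed apart. Of its 36 members 24 were tested, and 17 were higher and 2 lower in M1 CM. The counts were 3 and 9 in M2 CM, and 6 and 12 in TAM CM, the last a share called near that of all genes. Among the 24, Trim30c and Trim30d passed the filter through M1 CM alone, and Trim69 through M1 CM and TAM CM alone. The 4 NHL members, Trim2, Trim3, Trim32 and Trim71, had 1 higher and 3 lower in both M1 CM and TAM CM. In M1 CM the higher one was Trim3 and in TAM CM it was Trim32. Of the 4 chromatin regulators 2 were lower in M1 CM (Trim24 and Trim28), in M2 CM the 4 had adjusted p from 0.0575 to 0.713, and in TAM CM Trim33 was higher and Trim24 and Trim28 lower. Trim28, the corepressor of KRAB zinc finger proteins, averaged 350.1 ± 15.1 CPM in M1 CM, 435 ± 7.69 CPM in M2 CM, 389 ± 17.6 CPM in TAM CM and 419.8 ± 10.7 CPM in M0 CM; it fell by 0.26 on the log2 scale in M1 CM (adjusted p = 4.42e-09). Among the members without a RING domain, Trim44 was not called in M1 CM or TAM CM, Trim14 and Trim16 are described above, and Trim29 had 7 counts in M1 CM, 26 in TAM CM and 0 in M2 CM and M0 CM. The differences between subfamilies were not tested.

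Levels between members are given per kilobase of exon. Trim28 was the most abundant member in M2 CM (105 CPM per kilobase), TAM CM (93.6) and M0 CM (101). In M1 CM Trim30a stood at 85.2 CPM per kilobase and Trim28 at 84.2, values whose difference is within the spread of the libraries. Trim47 (55.0), Trim35 (54.5), Trim12c (37.9) and Trim25 (35.6) followed in M1 CM. In TAM CM Trim35 (73.0) took the second place, ahead of Trim47 (25.8) and Trim59 (24.9). In M0 CM Trim47 (44.9), Trim59 (36.4) and Trim35 (35.2) followed Trim28. Trim30a was at 3.86 CPM per kilobase in M2 CM, 3.13 in TAM CM and 5.94 in M0 CM.

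**Figure D4:**
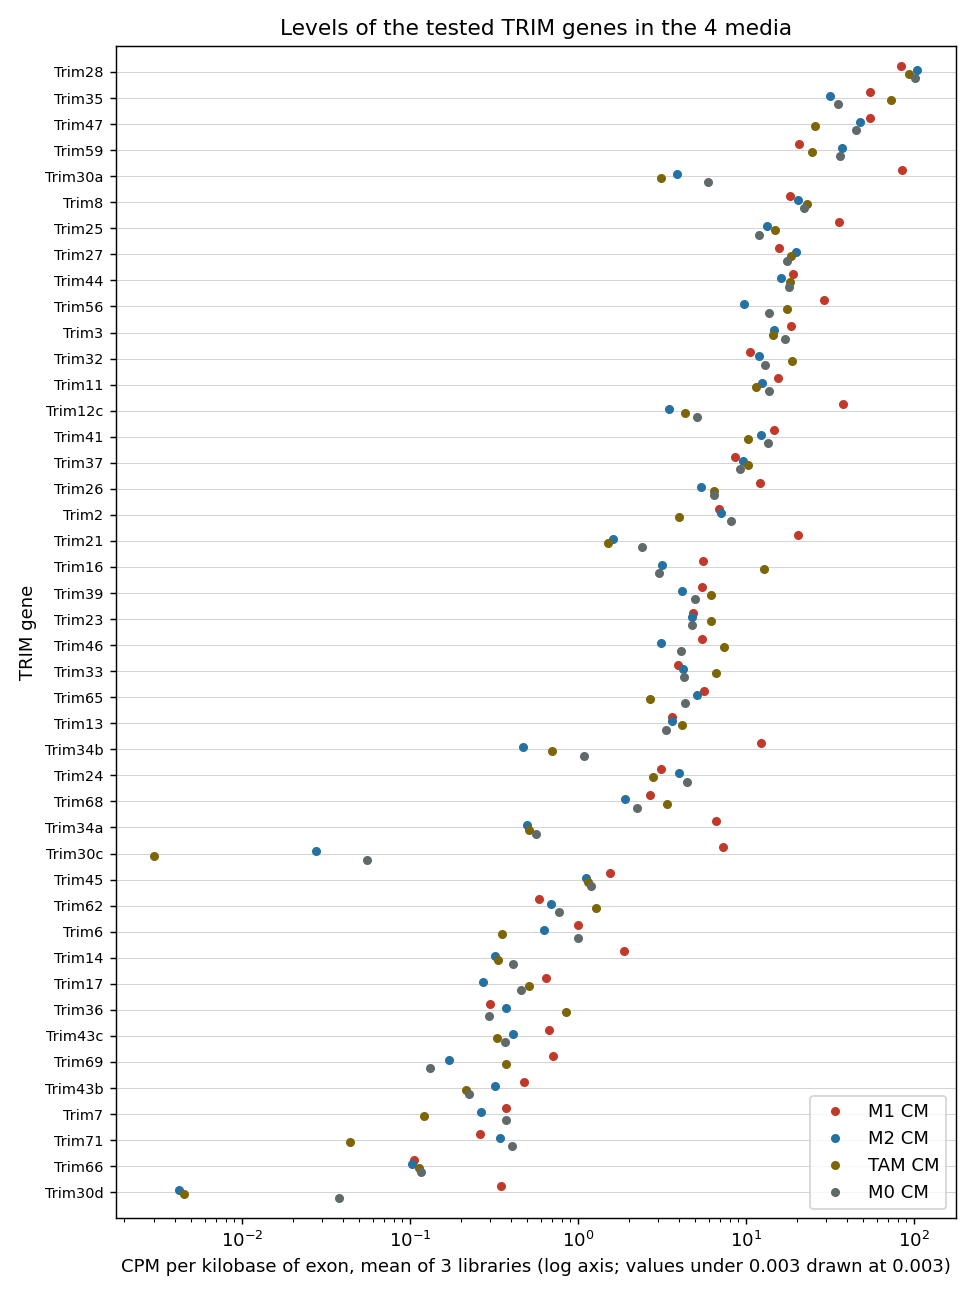
Mean CPM per kilobase of exon (horizontal log axis) of the 44 tested TRIM genes in M1 CM, M2 CM, TAM CM and M0 CM, ordered by their mean over the media; values under 0.003, here Trim30c in TAM CM, are drawn at 0.003. The M1 CM points of Trim30a, Trim12c, Trim21, Trim34a, Trim34b and Trim30c lie far right of the other media, and Trim28 leads in M2 CM, TAM CM and M0 CM.

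The 24 members under the filter include 10 with no count in any of the 12 libraries: Trim9, Trim10, Trim42, Trim50, Trim52, Trim55, Trim58, Trim60, Trim61 and Trim75. The other 14 had between 1 and 63 counts in all libraries together. Trim43a had the 63, and Trim5 had 34, Trim29 33, Trim30b 26 and Trim80 18. Trim38, a member of the interferon-linked list, had 1 count in all. Of the 44 tested members 40 were over the filter's limit of 0.484 CPM on average in all 4 media. The other 4 were Trim30c and Trim30d, over it in M1 CM alone, Trim69, over it in M1 CM and TAM CM, and Trim71, under it in TAM CM.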

How the data were processed

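RNA sequencing of 12 SCC7 libraries, grouped by their titles, was analysed. The authors deposited raw read counts per Ensembl gene. The submitters' processing notes list HISAT2 2.0 and mm10; for the counting tool, annotation and strandedness, the sources used here say nothing. Symbols and coordinates are from GENCODE M21 (55227 of 55487 genes matched), and promoters from RefSeq. Genes kept by filterByExpr (14509; those removed held 0.0815% of counts) were TMM-scaled and fitted with edgeR 4.0.16 in R 4.3.3 (glmQLFit, robust; glmQLFTest), with a mean per medium and Benjamini-Hochberg adjustment over all genes. SE is the log2 fold change over the root of F. Members with an adjusted p under 0.05, 1.5-fold and 1 CPM against M0 CM (30) are given in every library. The members and lists were chosen with earlier results of these data known. Alternatives were DESeq2 1.42.0, other scalings and filters, pairwise fits, a replicate block, summed near copies and each library left out. Same-group libraries differed beyond sampling noise (chi-square over degrees of freedom 2.00 to 5.17). Intervals cover counting error only. Floors set a group with 0 counts to 3 and take the count of the other group as exact. The steps were tested on simulated counts. Protein sequences were not used here.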

Additional observations from a re-analysis of the deposited data

How the results depend on the processing

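Of 186 calls of a member in a comparison, 0 reversed direction under any alternative run, and 26 were lost under at least 1 of them; 11 of these 26 were at least 1.5-fold, and they concern Trim17, Trim30c, Trim30d, Trim34b, Trim43b, Trim43c, Trim69 and Trim71. Each count of members called stayed within 1.5 times of the count given. With each library left out in turn the counts ran from 28 to 31 for M1 CM against M0 CM, 17 to 19 for M2 CM, 29 to 32 for TAM CM, 31 to 34 for M2 CM against M1 CM, 37 to 40 for TAM CM against M1 CM and 28 to 30 for TAM CM against M2 CM. DESeq2 called 28, 17, 31, 32, 39 and 29 in the same order. With library sizes alone 20 members were higher and 11 lower in M1 CM, and 3 and 22 in M2 CM; over all genes the split was then 3219 higher and 4626 lower in M1 CM, where TMM gave 4023 and 3719, and 2201 and 3653 in M2 CM, where TMM gave 3042 and 2681. Trim43b in M1 CM had a log2 fold change of 1.65 without the first M0 CM library and 0.68 without the second, and the cause was not tested.

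No label ties equal replicate numbers to a shared culture or day, and the libraries were treated as unpaired: the deviations of same-numbered libraries of different groups correlated at -0.022 to 0.094 over 18 pairs, 0 of them over 0.1, and those of different-numbered libraries at -0.093 to 0.036 over 36 pairs. With the replicate number as a block 32, 19, 33, 33, 39 and 31 members were called, and the call of Trim62 in M1 CM was lost (adjusted p = 0.0505). That call was also lost under DESeq2 (adjusted p = 0.0673), under other alternatives and without some single libraries (adjusted p up to 0.140). Genes well under 1 CPM, such as Trim30d outside M1 CM, rest on single counts, and no direction beyond the stated intervals can be read from them.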
